A study of Mus musculus with 8 samples.

Results

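This account covers 48 genes whose products license and copy DNA, out of 27178 genes in the count tables, followed through embryonic mouse cortex in 2 experiments. These used a short hairpin RNA against the long noncoding RNA Lockd and an allele labelled PlyA-KI. The genes were taken from a list of names, with no cut on a measured value, and were sorted into 10 roles, from the origin recognition complex to fork protection. The list was chosen with earlier results of these data known. Shares of the list set against shares of all genes therefore describe it and are not independent tests. All 48 were found in the tables and all 48 passed the filter on low counts in each comparison. The lowest count of any of them in a single library was 46.

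Messenger RNA was sequenced from 8 libraries in 4 groups of 2. The Lockd knockdown libraries came from ICR embryos of wild-type genotype that received a plasmid expressing a short hairpin RNA against Lockd at 3 µg/µl, and their controls came from ICR embryos of wild-type genotype given a control plasmid at the same concentration. Both plasmids were electroporated into the lateral ventricle at embryonic day 14.5 (E14.5), and the GFP-positive cells of the cortex were sorted at E16.5. Which promoters drive the plasmids is not given in the sources used here. The PlyA-KI libraries came from pooled E13.5 cortices of C57BL/6 PlyA-KI embryos, and the wild-type libraries from pooled E13.5 cortices of C57BL/6 wild-type embryos. What the PlyA-KI allele changes is not stated in the labels, and it is called by that label here. Neither litters nor embryo numbers per library are stated, so p-values measure the spread between these libraries only.

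A cell copies its genome once per division by separating 2 steps. In G1 the origin recognition complex, Cdc6 and Cdt1 load the MCM helicase onto DNA in an inactive form, which is called licensing. In S phase kinases and the Cdc45 and GINS cofactors switch the helicase on, and polymerases, the Pcna clamp and its loader copy both strands behind it. In the developing cortex many of these genes are expressed mainly in dividing progenitors, the radial glia and intermediate progenitors, and fall as neurons leave the cell cycle. Many replication genes are classical targets of E2F transcription factors in mammalian cells.

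That background makes the start sites of the licensing and helicase genes worth seeing. RefSeq promoter windows on GRCm38.p6, running from 250 bases before to 50 bases after a gene's start, were found for 38 of the 48 genes. The common E2F site forms TTTCCCGC and TTTGGCGC were searched on both strands, as was CCAAT. Either E2F form occurred in the windows of 13 of the 38 genes (34.2%), against 486 of 27025 genes with a window (1.8%). CCAAT occurred in 23 of the 38 (60.5%), against 41.06% of all genes. The 27025 genes were not limited to those expressed here, as the 38 were, so the 2 sets are not matched. Shown here are 30 bases around the match nearest to the start in each licensing or MCM gene that had an E2F match, on the strand of the gene, with the match in capitals.
Cdc6: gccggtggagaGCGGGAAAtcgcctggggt
Cdt1: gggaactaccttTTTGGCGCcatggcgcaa
Mcm3: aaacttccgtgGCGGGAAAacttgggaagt
Mcm5: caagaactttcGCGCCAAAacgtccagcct
Mcm6: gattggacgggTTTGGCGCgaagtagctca
Mcm7: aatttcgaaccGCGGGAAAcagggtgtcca
These lie at chr11:98908002-98908031 (plus strand), chr8:122568035-122568064 (plus), chr1:20820275-20820304 (minus), chr8:75109349-75109378 (plus), chr1:128359734-128359763 (minus) and chr5:138172030-138172059 (minus), in the order listed. Cdc6, Mcm3, Mcm5 and Mcm7 hold the site in reverse orientation, Cdt1 and Mcm6 in forward orientation. A match of letters is a description and was not tested as a binding site.

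The 3 genes with the smallest p-values in the knockdown comparison, Clspn, Ticrr and Mcm3, are also shown by the 250 bases before their start, with CCAAT or its reverse complement in capitals. None of these 3 upstream stretches holds either E2F form.
Clspn: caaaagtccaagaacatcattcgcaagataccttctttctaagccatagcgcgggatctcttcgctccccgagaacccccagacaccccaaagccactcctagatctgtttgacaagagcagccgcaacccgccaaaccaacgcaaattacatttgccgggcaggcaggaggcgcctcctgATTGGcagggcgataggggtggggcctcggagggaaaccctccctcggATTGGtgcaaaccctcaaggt
Ticrr: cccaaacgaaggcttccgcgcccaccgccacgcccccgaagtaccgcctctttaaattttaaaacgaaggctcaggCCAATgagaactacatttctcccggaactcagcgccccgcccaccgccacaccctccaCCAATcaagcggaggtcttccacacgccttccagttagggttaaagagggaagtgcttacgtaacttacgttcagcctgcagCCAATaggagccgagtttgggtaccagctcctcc
Mcm3: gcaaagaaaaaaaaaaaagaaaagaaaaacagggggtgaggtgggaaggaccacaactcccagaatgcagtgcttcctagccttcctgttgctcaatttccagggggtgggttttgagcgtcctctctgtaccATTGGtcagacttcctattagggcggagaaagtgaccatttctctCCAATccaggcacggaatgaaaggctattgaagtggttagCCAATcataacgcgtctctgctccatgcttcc
They lie at chr4:126556730-126556979 (plus strand), chr7:79659946-79660195 (plus) and chr1:20820313-20820562 (minus). Mcm3 has both E2F forms after its start, TTTCCCGC in the 30-base window printed for it and TTTGGCGC just past the end of that window. Clspn holds 2 CCAAT matches in this stretch, and Ticrr and Mcm3 hold 3 each.

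Libraries held 12805874 to 15911118 counts in the electroporation experiment and 35167646 to 47460020 in the PlyA-KI experiment. Lockd itself stood at 4.85 and 2.83 CPM (counts per library scaled to a common total) in the knockdown libraries, against 8.90 and 7.80 CPM in the controls. The groups did not overlap, but the log2 fold change of −1.11 ± 0.30 (SE) did not pass the threshold (adjusted p = 0.254 by the quasi-likelihood test of edgeR, Benjamini-Hochberg adjusted over all genes). In the PlyA-KI libraries Lockd had 4 and 2 counts, against 871 and 1139 counts in wild-type libraries, and this fall passed the edgeR test (adjusted p = 2.98e-07). The neighbouring gene Cdkn1b had a log2 fold change of −0.612 ± 0.093 (SE) in PlyA-KI, which passed DESeq2 but not edgeR (edgeR adjusted p = 0.0843). In the knockdown Cdkn1b stood at −0.033 ± 0.135 (SE). The part of Cdkn1b in the values below was not tested. The cortical genes Emx1, Emx2 and Lhx2 were present in all 8 libraries. In bulk RNA, fewer cells of a type cannot be told apart from less RNA per cell.

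The replication genes spanned a wide range of levels per gene length, with Pcna and Mcm7 at the top and Orc1 at the bottom of every group. Ranks between these differed. Rfc3, for example, was at rank 3 in control and knockdown cells, but at rank 12 in wild-type and 14 in PlyA-KI cortex. On the FPKM scale Pcna, the sliding clamp of the polymerases, was highest in each group, with means of 95.6 in knockdown and 136 in control cells, and 363.9 in PlyA-KI and 363 in wild-type cortex. Mcm7, a subunit of the helicase, came second in each group at 83.8, 105, 187 and 209 FPKM. Orc1, the origin recognition subunit that is cell-cycle regulated in mammals, was lowest in each group at 1.38 FPKM in knockdown cells, 2.37 in control cells, 5.47 in PlyA-KI cortex and 6.33 in wild-type cortex. Orc6 stood highest of its complex in each group, with 32.7 FPKM in knockdown and 35.7 in control cells. The 48 genes together took 0.199% and 0.186% of the counts of the knockdown libraries, against 0.255% and 0.252% in the controls. They took 0.506% and 0.566% in the PlyA-KI libraries, against 0.554% and 0.638% in wild type. The knockdown shares thus lay below both control shares, while the PlyA-KI and wild-type shares overlapped.

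**Figure D1:**
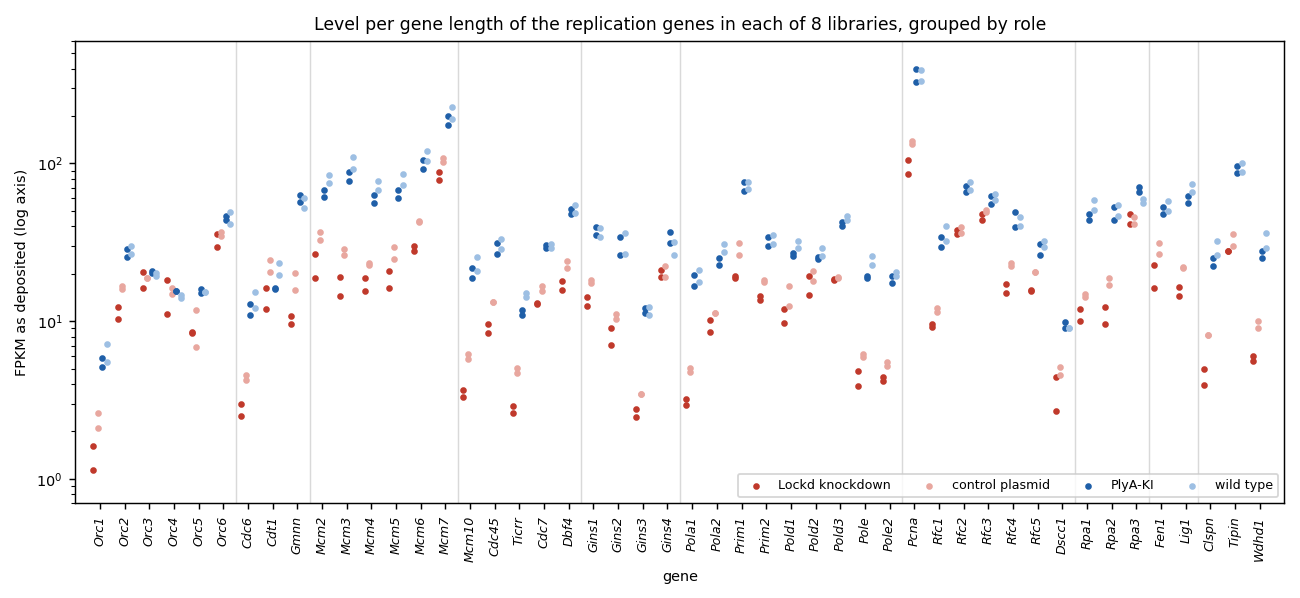
FPKM of each of the 48 replication genes in each of the 8 libraries on a log axis, grouped by role with vertical lines between roles, one point per library. Pcna and Mcm7 sit at the top in every group and Orc1 at the bottom, and sorted E16.5 cells (red) lie below E13.5 cortex (blue) for most genes.

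Lockd knockdown against control plasmid asks what differs with the hairpin against Lockd in cells electroporated as progenitors. The fall of Lockd itself did not pass the edgeR test here. Of the 48 replication genes, 47 had a log2 fold change below 0 and 1, Rpa3, above it. Their median log2 fold change was −0.42, with a range of −0.86 (Clspn) to 0.04 (Rpa3), where the median of all 13758 genes tested was 0.00 with quartiles of −0.15 and 0.13. A share of 50.1% of all genes tested lay below 0. Both knockdown libraries lay below both controls in CPM for 40 of the 48 genes, against 19.8% of all genes, and the groups overlapped for the other 8 genes.

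None of the 48 passed edgeR's quasi-likelihood test after adjustment over all genes, nor did any other gene (0% called). At an unadjusted p under 0.05, 29 of the 48 were lower and 0 higher, and of all genes tested 4.15% were lower and 3.36% higher at that level. DESeq2 called 3 of them, with 0.356% of all genes called, and gave no adjusted p for Orc1 and Dscc1. Those 3 were Clspn (adjusted p = 0.0201, range over 10 alternatives 0.00379 to 0.179), Ticrr (DESeq2 adjusted p = 0.0349, range 0.00992 to 0.189) and Mcm3 (DESeq2 adjusted p = 0.0427, range 0.00537 to 0.244). The edgeR count of 0 became 7 without knockdown library 1, 2 without control library 1 and 1 without knockdown library 2, fits that called 0.593%, 0.938% and 0.514% of all genes, and it stayed 0 without control library 2, where 0.127% of all genes were called. Relative to the control mean, the median gene stood at a log2 ratio of −0.35 in knockdown library 1 and −0.55 in knockdown library 2.

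**Figure D2:**
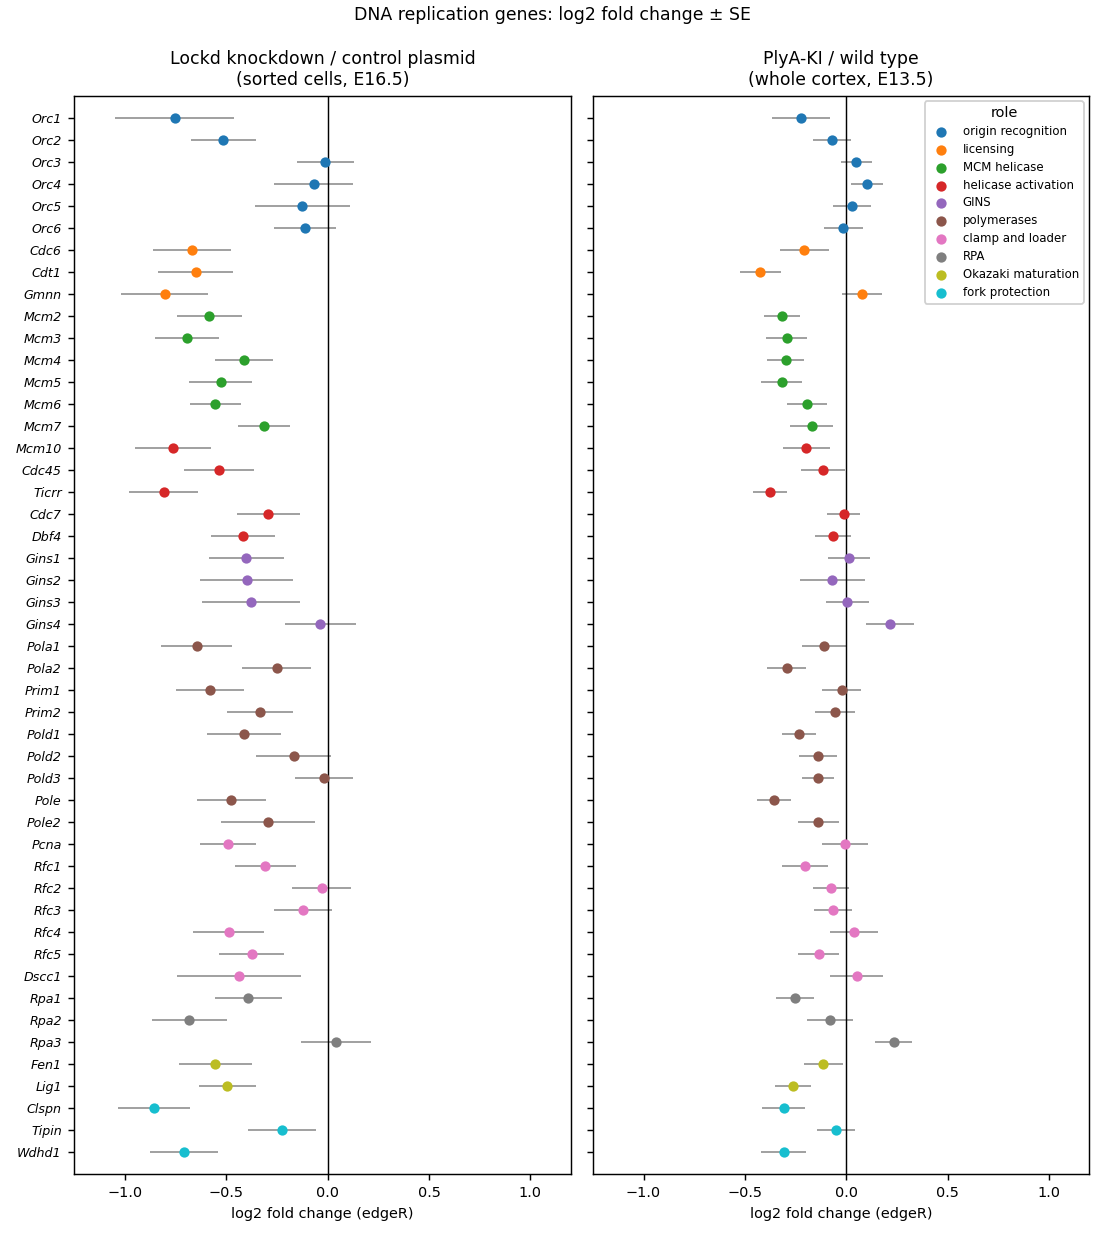
Log2 fold change ± SE (edgeR) of each replication gene, coloured by role, for Lockd knockdown over control plasmid (left) and PlyA-KI over wild type (right). On the left 47 of 48 points lie below 0, with a median of −0.42, and on the right 38 of 48 do, with a median of −0.11.

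The roles differed in where they sat within that range. In the origin recognition complex, the ATP-driven platform that marks origins, Orc1 (−0.75) and Orc2 (−0.52) had the lowest log2 fold changes. Orc3 (−0.01), Orc4 (−0.07), Orc5 (−0.13) and Orc6 (−0.11) lay near 0, and their groups overlapped. Orc2 had 34.9 and 41.4 CPM in the knockdown libraries, against 53.6 and 56.8 CPM in the controls. Both knockdown libraries were low and the groups did not overlap, with a log2 fold change of −0.52 ± 0.16 (SE) and an edgeR adjusted p of 0.319.

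All 3 licensing factors were lower at an unadjusted p under 0.05. Cdc6, the ATPase that recruits the helicase to the origin complex, had a log2 fold change of −0.67, and Cdt1, which delivers the helicase, −0.65. Gmnn encodes geminin, the inhibitor that binds Cdt1 and blocks relicensing in S and G2. Gmnn had 10.6 and 9.37 CPM in the knockdown libraries, against 15.3 and 19.9 CPM in the controls. Both knockdown libraries were the lower ones and their mean was 56.8% of the control mean, with a log2 fold change of −0.81 ± 0.21 (SE, edgeR adjusted p = 0.254).

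The 6 MCM subunits form the ring of the helicase, and each was lower in both knockdown libraries than in both controls. Their log2 fold changes ran from −0.70 for Mcm3 through −0.58 (Mcm2), −0.55 (Mcm6), −0.53 (Mcm5) and −0.41 (Mcm4) to −0.32 for Mcm7, and all 6 had an unadjusted p under 0.05. Mcm3 had 55.1 and 41.9 CPM in the knockdown libraries, against 82.3 and 76.3 CPM in the controls. Knockdown library 2 was the lower of its pair, and the log2 fold change was −0.70 ± 0.16 (SE, edgeR adjusted p = 0.198).

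Helicase activation followed. Ticrr, the treslin protein that brings Cdc45 to loaded helicases, had 20.7 and 18.7 CPM in the knockdown libraries, against 36.3 and 33.6 CPM in the controls. Its libraries agreed closely within each group, and its mean was 56.4% of the control mean (log2 fold change −0.81 ± 0.17 SE, edgeR adjusted p = 0.184). Mcm10, which acts in activating the loaded helicase, stood at −0.76 and Cdc45, a subunit of the active helicase, at −0.54. The kinase Cdc7 (−0.29) and its activator Dbf4 (−0.42), which phosphorylate the MCM ring, were less far from 0.

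The GINS complex joins Cdc45 and MCM in the active helicase, and its subunits did not have equal values. Gins1 (−0.40), Gins2 (−0.40) and Gins3 (−0.38) lay lower in both knockdown libraries, and Gins4 (−0.04) overlapped between groups. Gins1 had 16.6 and 14.5 CPM in the knockdown libraries, against 21.3 and 20.3 CPM in the controls. These did not overlap, and Gins1 was the single subunit with an unadjusted p under 0.05 (edgeR adjusted p = 0.655, log2 fold change −0.40 ± 0.18 SE).

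Among the 9 polymerase genes, those of the primase and polymerase alpha complex, which starts each strand, included the lowest values. Pola1, its catalytic subunit, stood at −0.65 and the primase Prim1 at −0.58, with Prim2 at −0.34 and Pola2 at −0.25. Pole, the catalytic subunit of the leading-strand polymerase, stood at −0.48 and Pole2 at −0.29. Of the lagging-strand polymerase, Pold1 stood at −0.41, Pold2 at −0.17 and Pold3 at −0.02. Pola1 had 15.8 and 17.3 CPM in the knockdown libraries, against 25.4 and 27.0 CPM in the controls. Knockdown lay below control without overlap, and the log2 fold change was −0.65 ± 0.18 (SE, edgeR adjusted p = 0.254).

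Pcna, the clamp, had 133 and 108 CPM in the knockdown libraries, against 175 and 168 CPM in the controls. Pcna was thus low in both knockdown libraries (log2 fold change −0.49 ± 0.14 SE, edgeR adjusted p = 0.265). The clamp loader genes were Rfc1 (−0.31), Rfc2 (−0.03), Rfc3 (−0.12), Rfc4 (−0.49) and Rfc5 (−0.38), and Dscc1, of an alternative loader, stood at −0.44. Rfc4 and Rfc5 had an unadjusted p under 0.05, and the other 4 did not.

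RPA coats single-stranded DNA as a complex of 3 subunits, and these parted. Rpa2 had 22.1 and 17.1 CPM in the knockdown libraries, against 33.4 and 30.1 CPM in the controls. Both knockdown libraries were low (log2 fold change −0.68 ± 0.18 SE, edgeR adjusted p = 0.254). Rpa1 stood at −0.39 and Rpa3 at 0.04. Rpa3 had 30.5 and 26.3 CPM in the knockdown libraries, against 26.4 and 29.3 CPM in the controls, which overlapped. Per gene length, Rpa3 was 4.06 times the lowest subunit in knockdown cells and 3.0 times in control cells.

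Fen1, the flap nuclease, and Lig1, the ligase, finish Okazaki fragments, and stood at −0.56 and −0.50. Lig1 had 57.8 and 50.6 CPM in the knockdown libraries, against 76.4 and 77.9 CPM in the controls. No control library came near the knockdown values (log2 fold change −0.50 ± 0.14 SE, edgeR adjusted p = 0.265). The fork protection genes held the lowest value of all. Clspn, which encodes claspin, the mediator between the replication fork and the checkpoint kinase Chk1, had 19.6 and 24.8 CPM in the knockdown libraries, against 40.5 and 40.95 CPM in the controls. Its knockdown mean was 54.5% of the control mean, with a log2 fold change of −0.86 ± 0.18 (SE, edgeR adjusted p = 0.167). Wdhd1, which ties polymerase alpha to the helicase, stood at −0.71, and Tipin, partner of Timeless at the fork, at −0.23.

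**Figure D3:**
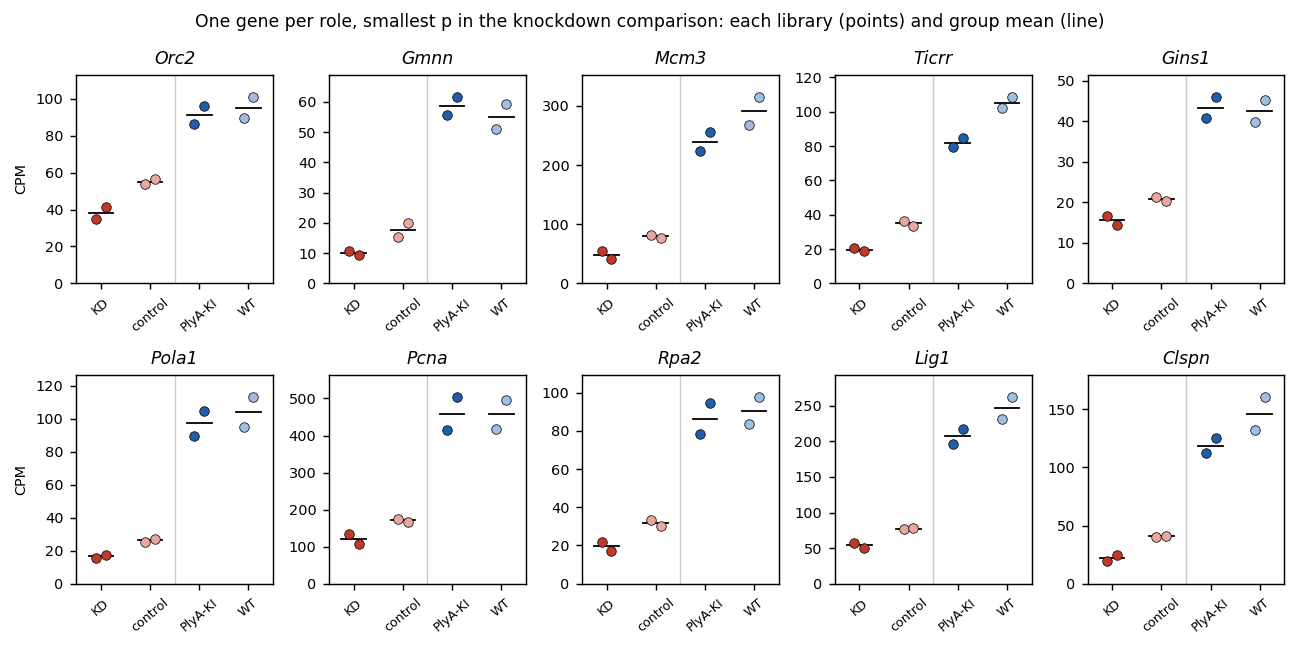
CPM in each library (points) and group mean (lines) for the gene of each role with the smallest p in the knockdown comparison, each panel with its own axis from 0. Knockdown points lie below control points in all 10 panels, for example 19.6 and 24.8 CPM against 40.5 and 40.95 CPM for Clspn.

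PlyA-KI against wild-type cortex asks what differs with the allele at E13.5, in whole cortex and without electroporation. Here the replication genes lay closer to 0. Of the 48, 38 had a log2 fold change below 0 and 10 above it, with a median of −0.11 and a range of −0.42 (Cdt1) to 0.24 (Rpa3), where the median of all 15398 genes was 0.01 and 48.2% lay below 0. Both PlyA-KI libraries lay below both wild-type libraries for 16 of the 48 genes (33.3%), against 20% of all genes. They lay above for 4 genes, Orc3, Orc4, Dscc1 and Rpa3, against 23.7% of all genes, and overlapped for 28.

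No replication gene passed the edgeR test, where 8 of all genes did (0.052%). At an unadjusted p under 0.05, 13 were lower and 1, Rpa3, was higher, and of all genes 6.05% were lower and 6.43% higher at that level. DESeq2 called Ticrr (adjusted p = 0.0293, range over 10 alternatives 1.30e-06 to 0.627) and Pole (DESeq2 adjusted p = 0.0339, range 4.89e-09 to 0.694), with 0.753% of all genes called. Single libraries moved these counts. The edgeR count was 10 without wild-type library 1 and 11 without PlyA-KI library 2, fits that called 2.37% and 3.56% of all genes. It was 0 without wild-type library 2 or without PlyA-KI library 1, where 0.302% and 0.839% of all genes were called. The median log2 fold change was −0.20 without wild-type library 1 and −0.23 without PlyA-KI library 2, but −0.01 without wild-type library 2 and −0.02 without PlyA-KI library 1. Library 2 exceeded library 1 for 44 of the 48 genes within PlyA-KI and for 47 within wild type. In the electroporation experiment it did so for 24 within the controls and for 13 within the knockdown. The same order over all genes was not counted, so it is not shown to be particular to these genes.

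All 6 MCM subunits had log2 fold changes below 0, from −0.32 for Mcm2 and Mcm5 to −0.17 for Mcm7, with a median of −0.30, and 4 of them, Mcm2 to Mcm5, had an unadjusted p under 0.05. Mcm2 had 205 and 230 CPM in the PlyA-KI libraries, against 254 and 285 CPM in wild type. PlyA-KI lay below wild type without overlap (log2 fold change −0.32 ± 0.09 SE, edgeR adjusted p = 0.270). The origin recognition genes had a median of 0.01, with Orc1 the lowest at −0.22 ± 0.14 (SE, edgeR adjusted p = 0.550). Orc1 had 15.4 and 17.6 CPM in the PlyA-KI libraries, against 16.6 and 21.6 CPM in wild type, and the groups overlapped.

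Of the licensing factors, Cdt1 stood apart from Gmnn. Cdt1 had 35.2 and 35.6 CPM in the PlyA-KI libraries, against 43.3 and 50.9 CPM in wild type. The groups did not overlap, and the log2 fold change of −0.42 ± 0.10 (SE, edgeR adjusted p = 0.223) was the lowest of the 48. Gmnn, its inhibitor, had a log2 fold change of 0.08 and overlapping groups, and Cdc6 stood at −0.21. Ticrr had 79.2 and 84.5 CPM in the PlyA-KI libraries, against 102 and 109 CPM in wild type. Those groups did not overlap either (log2 fold change −0.38 ± 0.08 SE, edgeR adjusted p = 0.206). The other activation genes ran from −0.20 for Mcm10 to −0.01 for Cdc7.

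Among the helicase cofactors and polymerases, Gins4 and Pole marked the ends. Gins4 had 42.6 and 49.96 CPM in the PlyA-KI libraries, against 35.8 and 43.2 CPM in wild type. The groups overlapped (log2 fold change 0.22 ± 0.12 SE, edgeR adjusted p = 0.473), and the other 3 GINS genes lay between −0.07 and 0.02. Pole had 137 and 135 CPM in the PlyA-KI libraries, against 163 and 184 CPM in wild type. Its groups did not overlap (log2 fold change −0.36 ± 0.08 SE, edgeR adjusted p = 0.218). All 9 polymerase genes lay below 0, with a median of −0.14, and Pole, Pola2 (−0.29) and Pold1 (−0.23) had an unadjusted p under 0.05.

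At the clamp, Pcna had 414 and 503 CPM in the PlyA-KI libraries, against 418 and 496 CPM in wild type, which overlapped almost fully (log2 fold change −0.005). Rfc1, the large subunit of the loader, had 139 and 161 CPM in the PlyA-KI libraries, against 153 and 189.9 CPM in wild type. The groups overlapped (log2 fold change −0.20 ± 0.11 SE, edgeR adjusted p = 0.481). The RPA subunits parted again, with Rpa1 at −0.25 ± 0.09 (SE), Rpa2 at −0.08 and Rpa3 at 0.24 ± 0.09 (SE). Rpa1 had 137 and 149 CPM in the PlyA-KI libraries, against 157 and 182 CPM in wild type. Its groups did not overlap (edgeR adjusted p = 0.319). Rpa3 had 42.1 and 45.2 CPM in the PlyA-KI libraries, against 35.6 and 38.0 CPM in wild type. Both PlyA-KI libraries were the higher ones for Rpa3 (edgeR adjusted p = 0.343).

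Lig1 had 196 and 218 CPM in the PlyA-KI libraries, against 232 and 262 CPM in wild type. The groups did not overlap (log2 fold change −0.26 ± 0.09 SE, edgeR adjusted p = 0.295). Clspn had 112 and 126 CPM in the PlyA-KI libraries, against 132 and 160.4 CPM in wild type. These did not overlap (log2 fold change −0.31 ± 0.11 SE, edgeR adjusted p = 0.295). Wdhd1 stood at −0.31, Fen1 at −0.11 and Tipin at −0.05.

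**Figure D4:**
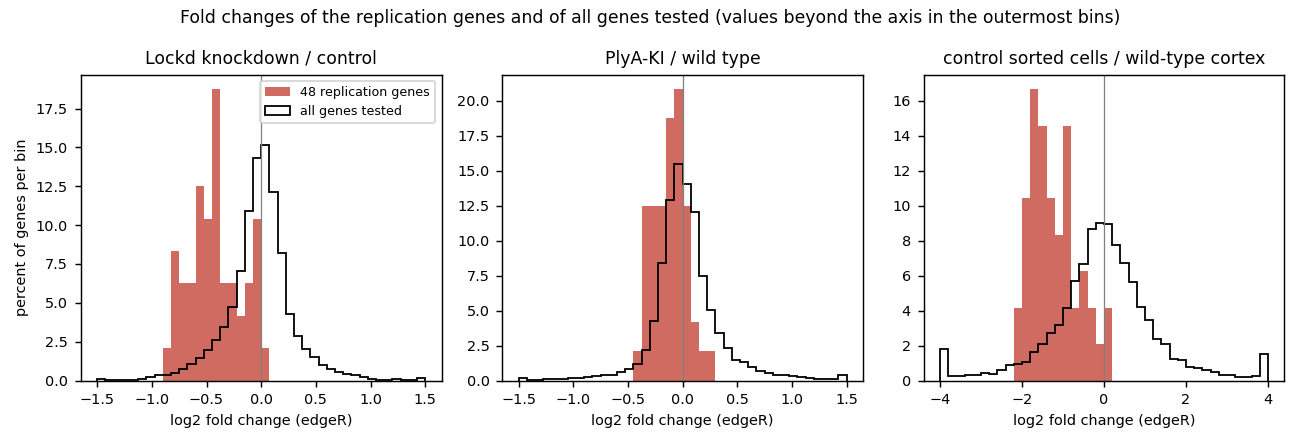
Distribution of log2 fold changes (edgeR) of the 48 replication genes (filled) and of all genes tested (outline) in percent of genes per bin, for Lockd knockdown over control, PlyA-KI over wild type, and control sorted cells over wild-type cortex. The medians of the replication genes are −0.42, −0.11 and −1.31, against 0.00, 0.01 and −0.03 for all genes.

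Knockdown and PlyA-KI share no library, so their values can be set side by side. The difference of the 2 log2 fold changes was below 0, lower in the knockdown, for 45 of the 48 genes, against 51.9% of all genes. The 12 genes that were lower at an unadjusted p under 0.05 in both were Cdt1, Mcm2, Mcm3, Mcm4, Mcm5, Ticrr, Pold1, Pole, Rpa1, Lig1, Clspn and Wdhd1. They made up 12 of the 29 such genes in the knockdown and 12 of the 13 in PlyA-KI, where the 13th was Pola2. Of all 13526 genes tested in both, 0.872% were lower at that level in both. The difference of the responses was tested as an interaction in a fit of all 8 libraries. None of the 48 passed it by edgeR or by DESeq2, where 0.0128% of all genes did by edgeR and 0.16% by DESeq2. At an unadjusted p under 0.05, 12 were lower in the knockdown and 0 higher, against 4.4% of all genes lower. Gmnn had the smallest p, with a difference of −0.88 ± 0.22 (SE, unadjusted p = 0.00178, edgeR adjusted p = 0.540). Its log2 fold change was −0.81 in the knockdown and 0.08 in PlyA-KI. With wild-type library 1 or PlyA-KI library 2 left out, the share of the 48 at that level lay near that of all genes.

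The 13 genes with an E2F match in their start window had a median log2 fold change of −0.41 in the knockdown and −0.17 in PlyA-KI. The 25 genes with a window and no match had medians of −0.49 and −0.12. Clspn and Ticrr, whose upstream sequences are printed above, were among those without a match to either form. Other forms of the E2F site were not searched, so no match here does not mean that a site is absent.

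Setting the 2 baselines side by side gave the largest differences. Control sorted cells (ICR, E16.5, electroporated, GFP-positive) differed from wild-type cortex (C57BL/6, E13.5, whole tissue) in stage, strain, electroporation and sort, and these cannot be told apart. This comparison shares the control libraries with the knockdown and the wild-type libraries with PlyA-KI. In the edgeR fit of all 8 libraries, 45 of the 48 genes fell, where 59.3% of all genes were called, 30.5% as lower. By DESeq2 44 of the 48 and 57.1% of all genes were called. An unadjusted p under 0.05 with a lower value was found for 32.5% of all genes, and 51% of all genes had a log2 fold change below 0, against 46 of the 48. The median log2 fold change of the 48 was −1.31, against −0.03 for all genes. Some marker lists fell too, and others did not. All 15 mitotic genes fell by edgeR, summing to 1541 and 1740.0 CPM in sorted control cells, against 4819 and 5432 CPM in wild-type cortex. Of 10 radial glia markers 8 fell, at 1390.0 and 1325 CPM against 2751 and 2821 CPM. All 6 endothelial markers fell, at 5.70 and 2.86 CPM in the sorted control cells, against 107 and 103 CPM in wild-type cortex. Of 8 erythroid markers tested 7 fell, at 7.89 and 6.76 CPM against 347 and 386 CPM. Of 6 intermediate progenitor markers 4 lay above 0 and 2 below (median 0.14), at 1667 and 1771 CPM against 1139 and 989.5 CPM. Of 10 neuron markers 5 lay above 0 and 5 below (median 0.03). Of 4 cortical genes 3 rose by edgeR and 1, Emx2, fell. The part of these lists in the fall of the replication genes was not tested.

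Pole (−2.01 ± 0.12 SE) and Pola1 (−2.01 ± 0.14 SE) fell furthest in the sorted control cells, followed by Mcm10 (−1.97), Pole2 (−1.93) and Rpa1 (−1.92). Pole had 42.5 and 44.4 CPM in the sorted control cells, against 163 and 184 CPM in wild-type cortex. The 3 genes that did not pass were Orc3 (−0.09), Orc4 (0.10) and Cdt1 (0.04). Cdt1 had 53.7 and 44.6 CPM in the sorted control cells, against 43.3 and 50.9 CPM in wild-type cortex, which overlapped, and Orc4 had 73.7 and 81.3 CPM against 69.4 and 73.4 CPM. Cdt1 was thus at a like level in both while its inhibitor Gmnn fell by 1.66 on the log2 scale (edgeR adjusted p = 1.93e-06). Within RPA the subunits were nearly level per gene length in wild-type cortex, the highest at 1.14 times the lowest, and 3.0 times in sorted control cells, where Rpa3 fell by 0.42 and Rpa1 by 1.92 on the log2 scale.

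A separate list of 32 further replication genes gave the wider pathway. In the knockdown 30 of them had a log2 fold change below 0, with a median of −0.28, and 10 were lower at an unadjusted p under 0.05, where 50.1% and 4.15% of all genes were. The smallest p-values belonged to Pclaf (−0.71), a Pcna-binding factor, Dtl (−0.62), which targets Cdt1 for destruction, Timeless (−0.53), the partner of Tipin, and Asf1b (−0.74), a histone chaperone. In PlyA-KI 27 of the 32 lay below 0, with a median of −0.14 and 10 lower at an unadjusted p under 0.05, where 48.2% and 6.05% of all genes were. The smallest p-values there belonged to Recql4 (−0.37), Tonsl (−0.33), Chaf1a (−0.33) and Chtf18 (−0.31). None of the 32 passed the edgeR or the DESeq2 test in either comparison, and DESeq2 gave no adjusted p for 1 of them in each.

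Other markers moved with the replication genes, and their part in the values above was not tested. In the knockdown all 15 mitotic genes lay below 0 (median −0.59), where 50.1% of all genes tested did. None of the 15 passed edgeR and 6 passed DESeq2, which called 0.356% of all genes. Their summed levels were 1085 and 953 CPM in the knockdown libraries, against 1541 and 1740.0 CPM in the controls. All 6 intermediate progenitor markers lay below 0 (median −0.48), at 1406 and 1137 CPM against 1667 and 1771 CPM, and so did 8 of 10 radial glia markers (median −0.27), at 1190.0 and 1038 CPM against 1390.0 and 1325 CPM. All 10 neuron markers lay above 0 (median 0.32), at 4642 and 4755 CPM in the knockdown libraries, against 3884 and 3902 CPM in the controls. None of these markers passed edgeR, and no member of these 4 lists was at 0 in any library. Besides the mitotic genes, DESeq2 called 1 neuron marker and no radial glia or intermediate progenitor marker. Microglia markers summed to 22.01 and 25.3 CPM in the knockdown libraries, against 31.1 and 7.66 CPM in the controls, and endothelial markers to 2.84 and 4.27 CPM against 5.70 and 2.86 CPM.

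In PlyA-KI 14 of the 15 mitotic genes lay below 0 (median −0.13), where 48.2% of all genes tested did. They summed to 4452 and 4964 CPM in the PlyA-KI libraries, against 4819 and 5432 CPM in wild type, which overlapped. Of 10 radial glia markers 9 lay below 0 and 1, Fabp7 (0.27), above (median −0.13). They summed to 2393 and 2564 CPM in the PlyA-KI libraries, against 2751 and 2821 CPM in wild type. Of 6 intermediate progenitor markers 4 lay below 0 and 2 above (median −0.05), at 1126 and 1039 CPM against 1139 and 989.5 CPM, which overlapped. All 10 neuron markers lay above 0 (median 0.31), at 4411 and 3633 CPM against 3697 and 3125 CPM, also overlapping. DESeq2 called 1 mitotic gene, 2 radial glia markers, 2 neuron markers and no intermediate progenitor marker. All 8 erythroid markers tested of 9 listed lay above 0, at 439 and 634 CPM in the PlyA-KI libraries, against 347 and 386 CPM in wild type, and 1 of them, Alas2, passed edgeR. All 13 mitochondrially encoded genes lay above 0 as well, summing to 28060.0 and 30380.0 CPM against 22030.0 and 20360.0 CPM. DESeq2 called 8 of them, against 0.753% of all genes. By edgeR 1 passed, ND3, at 8.04 and 7.19 CPM in the PlyA-KI libraries against 0.229 and 0.274 CPM in wild type (log2 fold change 4.88 ± 0.29 SE, edgeR adjusted p = 7.34e-05). Interneuron markers summed to 53.5 and 31.6 CPM in the PlyA-KI libraries, against 28.2 and 14.9 CPM in wild type. The part of these lists in the PlyA-KI values was not tested.

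**Figure D5:**
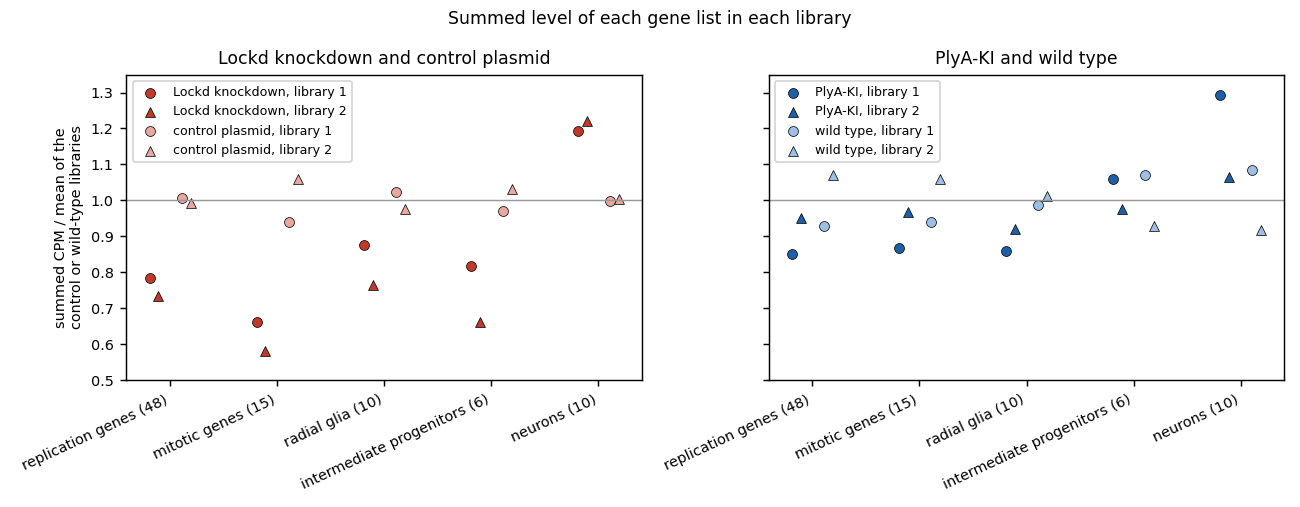
Summed CPM of the replication genes and of 4 other lists (number of genes in brackets), divided by the mean of the control or wild-type libraries, with one symbol per library. In the left panel replication, mitotic, radial glia and intermediate progenitor genes lie below both controls in both knockdown libraries and neuron markers above, and in the right panel the PlyA-KI and wild-type points overlap for replication genes.

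Some of the levels carry reads that cannot be assigned with certainty. In the GENCODE annotation, exons of 19 of the 48 genes overlapped exons of another gene, 15 of them only on the opposite strand, while how the counting treated strand is unknown here. The longest overlaps were those of Gins2 with Gse1 (2758 bases), Fen1 with the antisense gene Gm10143 (1909 bases), Rfc2 with Lat2 (952 bases) and Orc2 with Nif3l1 (686 bases). Mcm7 overlapped Ap4m1 and Cops6 on the opposite strand and hosts Mir25 and Mir93. Clspn, Mcm2, Mcm3, Cdt1, Gmnn, Pola1, Pcna and Rpa2 had no such overlap.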

How the data were processed

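Per the labels' protocols, mRNA was captured and fragmented before KAPA Hyper Prep library preparation. The submitters' processing notes name the mm10 build and the tools featureCounts, HISAT2, Trimmomatic and bcl2fastq; which versions, annotation and strand setting applied is not given in the sources used here. The authors deposited whole-number read counts per Entrez gene, not normalised, and beside each an FPKM value; a whole-number gene length, within 0.001, follows from count and FPKM for 100% of genes. Of 27178 genes, 25274 were named through the RefSeq table of GRCm38.p6 and 18 through GENCODE; 1886 stayed unnamed and held 0.423 to 0.968% of counts.

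CPM is the count scaled to the deposited library total. Counts were tested per experiment, on 4 libraries each, with edgeR 4.0.16 (R 4.3.3), using filterByExpr, TMM scaling (factors 0.991 to 1.016), two-sided quasi-likelihood F-test, and Benjamini-Hochberg adjustment over all genes tested at 0.05 (13758 genes in the knockdown, 15398 in PlyA-KI, 15641 in the fit of all 8 libraries). The SE is the absolute log2 fold change over the square root of F. The script was tested on simulated data. Alternatives were DESeq2 1.42.0, its size factors within edgeR, other filters, a single fit across the experiments, a block for replicate number, and leaving out each library. A limit of 3 counts equals 0.063 to 0.234 CPM and covers counting error only. Replicate libraries differed beyond sampling noise (chi-square per gene 11.8 to 24.0), so none was counted as a repeat.

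The members and all lists were chosen with earlier results of these data known. Genes given in full are those with the smallest p of each role in each comparison; Rpa3, Pcna, and the genes named for the baseline comparison were added after their values were seen. E2F windows are shown for licensing and MCM genes because they hold a match. Protein sequences were not used here.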

Additional observations from a re-analysis of the deposited data

How the results depend on the processing

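Across the alternatives, 146 of 167 summary values stayed within the replicate spread or within 1.5 times the main count, and 21 did not; the cause was not tested. The number of replication genes called by edgeR was 0 in both comparisons. In the knockdown it became 9 with no filter on low counts (184 genes called in all), 2 in one fit of all 8 libraries, 3 by DESeq2, and 0 to 7 with a library left out. In PlyA-KI it became 10 with no filter (484 genes in all), 2 by DESeq2, and 0 to 11 with a library left out. For the difference of the responses it became 1 with no filter (97 genes in all). The share of all genes called is not given here for the single fit of all 8 libraries. In PlyA-KI the number at an unadjusted p under 0.05 was 14, and 4 to 24 with a library left out, and the median log2 fold change was −0.11, and −0.228 to −0.011 with a library left out. For the difference of the responses the number at an unadjusted p under 0.05 was 12, and 2 to 17 with a library left out. The median of the knockdown stayed between −0.54 and −0.34 and its number of genes below 0 between 41 and 48 with a library left out. A fit without a library leaves a lone sample that is assumed to vary like the other group. Across such fits the share of all genes at an unadjusted p under 0.05 moved as well. In PlyA-KI the lowest and highest counts of replication genes came from the fits with the lowest and highest such shares. For the difference of the responses the highest count did not go with the highest share. Counts from these fits are thus not read alone.

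With the replicate number as a block, edgeR called 11 replication genes in the knockdown (161 genes in all, 1.17%) and 20 in PlyA-KI (2193 genes in all, 14.2%). An unadjusted p under 0.05 was found for 23 in PlyA-KI (25.2% of all genes) and 21 in the difference of the responses (13.4% of all genes). Same-numbered libraries deviated together (correlation 0.25 in the electroporation and 0.26 in the PlyA-KI experiment, over 11962 genes), but with 2 numbers the samples share only a number.

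Of the gene values, 269 of 340 kept direction and side of the threshold, 57 newly passed it and 14 changed sign. Sign changes came from leaving out a library. Gins4 in the knockdown ran from −0.15 to 0.10. In PlyA-KI, Gins1 ran from −0.087 to 0.109, Gmnn from −0.028 to 0.189, Orc2 from −0.162 to 0.016, Pcna from −0.166 to 0.137, Pola1 from −0.239 to 0.018 and Rpa2 from −0.234 to 0.060. With 2 libraries a group, the PlyA-KI and wild-type values overlapped for 28 of the 48 genes. Without overlap, 16 lay lower in PlyA-KI and 4 higher, against 20% and 23.7% of all genes.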
